A study of Saccharomyces cerevisiae with 6 samples.

Results

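The 8 genes described here handle zinc in budding yeast: ZRT1 and ZRT2 at the plasma membrane, ZRT3, ZRC1 and COT1 at the vacuole, ZRG17 in the secretory pathway, the surface protein gene ZPS1, and ZAP1, the gene of the zinc-responsive activator. They were taken by gene symbol from the platform annotation. All 8 listed genes were found, each with 1 probe, among 4060 named genes in a table of 6226 features (named genes and unnamed probes). RNA came from shaken cultures of 2 haploid strains, with 3 biological replicates each. The flor strain, P3_Kan in the titles and P3-D5 in the growth notes, is of mating type alpha and carries a KanMX drug-resistance cassette. The wine strain, K1_Kan in the titles and K1-280-2B in the growth notes, is of mating type a, and the labels do not explain its Kan. Both were grown at 28 °C in synthetic medium imitating wine and taken at an optical density of 1 (600 nm). Flor yeasts can float as a film on wine, which the labels say does not form under shaking. Each group is a single strain, so strain, mating type and any marker difference cannot be told apart, and in whole-culture RNA neither can fewer expressing cells and less RNA per cell.

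Yeast takes up zinc through the high-affinity transporter Zrt1 and the low-affinity transporter Zrt2. It stores zinc in the vacuole through Zrc1 and Cot1, and releases it again through Zrt3. The activator Zap1 senses zinc inside the cell, and in zinc-poor cells it switches on the uptake genes, its own gene and many others. COT1 is the exception among the 8, since the other 7 are known Zap1 targets. For ZRT2 the textbook picture is two-sided, with activation by Zap1 in mild zinc shortage and repression by it in severe shortage.

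The mating genes followed the labelled mating types: all 4 alpha-specific genes examined were higher in P3_Kan and all 5 a-specific genes were lower. Array medians lay between 8.33 and 8.35 on the log2 scale. Pearson correlations across features were 0.988 to 0.997 among the P3_Kan arrays, 0.997 to 0.998 among the K1_Kan arrays and 0.937 to 0.951 between the strains. P3_Kan replicate 1 stood furthest from its strain mean, with a standard deviation of 0.19 across features, against 0.08 to 0.13 for the other 5 arrays. All 7 of the calls on members described below were also made without that array. The labels call the 3 arrays of a strain biological replicates, and the title of replicate 2 in each strain also gives a technical replicate number of 2, whose partner array was not analysed here. How the cultures were started is not stated, so the p-values rest on the spread among these arrays, which may be partly technical.

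Expression of the uptake genes, ZPS1 and ZAP1 was higher in the flor strain, and that of the vacuolar importer COT1 and of ZRG17 was lower. The other vacuolar importer, ZRC1, was slightly lower, by a call that was lost in 9 of 18 alternative treatments of the data. The calls of ZAP1 and ZRG17 were lost in 1 each. Of the 8 genes, 4 were higher (ZRT1, ZPS1, ZRT2 and ZAP1), 3 were lower (COT1, ZRG17 and ZRC1) and ZRT3 did not pass the test (limma, Benjamini-Hochberg adjusted p under 0.05 over all features). These 7 calls are 87.5% of the genes, in a comparison in which 44.1% of all features were called, 20.5% higher and 23.6% lower (47.1% of the named genes). The 3 arrays of one strain lay wholly above those of the other for the same 7 genes, as they did for 56.1% of all features. The median size of change was 0.54 on the log2 scale for the 8 genes and 0.23 for all features. Because both directions occurred, the signed median was 0.22 for the 8 genes, beside −0.02 for all features. The genes were chosen with earlier results of these data known, so these shares and medians are a description and not a test. Among the 7 known Zap1 targets, 4 were higher, 2 were lower and 1 did not pass.

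**Figure D1:**
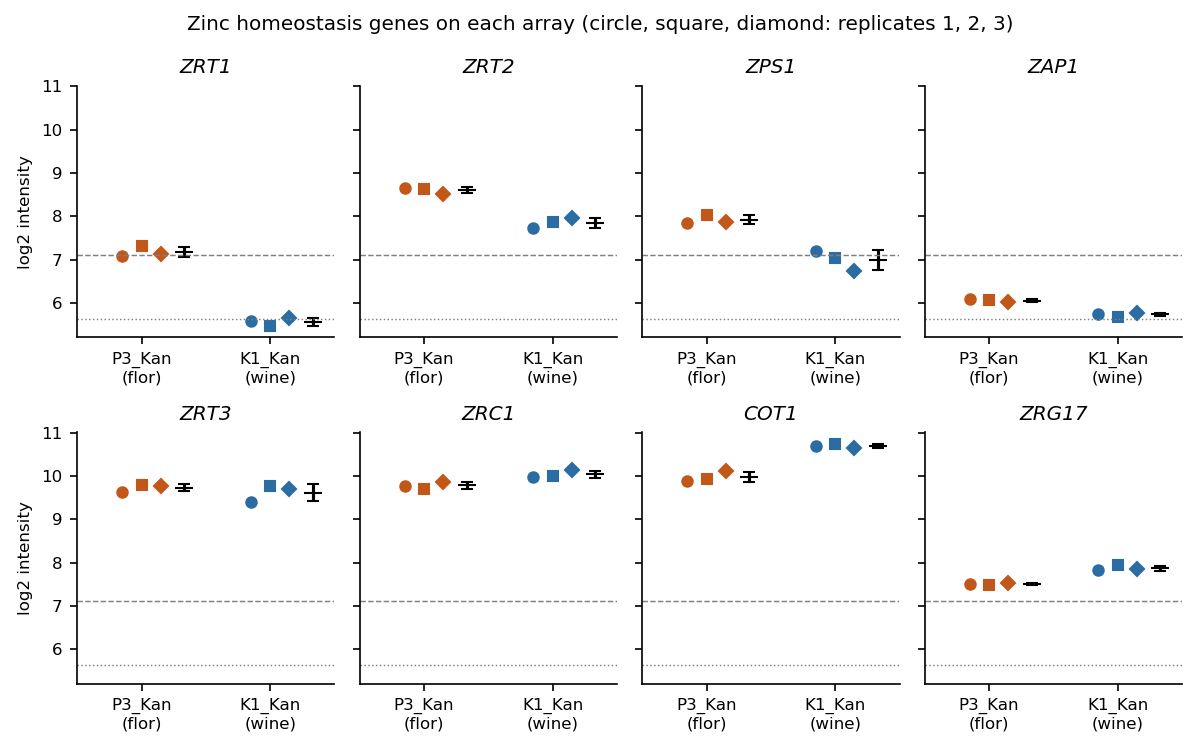
Log2 intensity of the 8 zinc homeostasis genes on each array, P3_Kan (flor, orange) left of K1_Kan (wine, blue) in every panel; symbols are biological replicates 1 to 3, and black bars are the mean ± SD of 3 arrays. The dashed line is the lower quartile of all values on all arrays (7.11) and the dotted line their 5th percentile (5.63). The strains overlap for ZRT3 alone among the 8 genes.

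ZRT1, the high-affinity zinc importer of the plasma membrane, changed most among the 8 genes. Its log2 intensities were 7.08, 7.31 and 7.12 in P3_Kan replicates 1, 2 and 3, against 5.57, 5.47 and 5.66 in K1_Kan replicates 1, 2 and 3. The lowest flor array thus stood far above the highest wine array. Means were 7.17 ± 0.12 in P3_Kan and 5.57 ± 0.09 in K1_Kan (SD, n = 3 per strain, as for each ± that follows). The difference was 1.60 (SE 0.09), a 3.04-fold higher level in the flor strain (95% interval 2.63 to 3.52, limma adjusted p = 2.3e-06). It ranked 69 among the increases of the 4060 named genes. The difference was 1.65 on slide 1, which held P3_Kan replicate 3 and K1_Kan replicate 2, and 1.58 on slide 2, which held the other 4 arrays. The wine strain's mean lay below the 5th percentile of all values (5.63), at the bottom of the measured range, where a fold can understate the change.

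ZRT2, the low-affinity importer, was also higher in the flor strain, by less. It read 8.65, 8.63 and 8.52 in P3_Kan replicates 1, 2 and 3, against 7.73, 7.87 and 7.96 in K1_Kan replicates 1, 2 and 3. Every flor array exceeded every wine array, and all 6 values lay above the lower quartile of 7.11. The difference was 0.74 (SE 0.09), or 1.67-fold (1.46 to 1.92, limma adjusted p = 0.00019), with 0.65 on slide 1 and 0.79 on slide 2.

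ZPS1 encodes a cell surface protein that resembles Pra1, a secreted zinc-binding protein of Candida albicans. Its log2 intensities were 7.85, 8.04 and 7.86 in P3_Kan replicates 1, 2 and 3, against 7.19, 7.04 and 6.75 in K1_Kan replicates 1, 2 and 3. The wine arrays were the more scattered, with a range of 0.44, the widest of any of the 8 genes in either strain, yet they stayed below all flor arrays. Mean levels were 7.92 ± 0.11 in P3_Kan and 6.99 ± 0.23 in K1_Kan. The level was 1.90-fold higher in the flor strain (1.57 to 2.29), a log2 difference of 0.92 (SE 0.12, limma adjusted p = 0.00035). It was 0.81 on slide 1 and 0.98 on slide 2.

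ZAP1, the activator gene, showed a small difference at a low signal. It read 6.08, 6.06 and 6.02 in P3_Kan replicates 1, 2 and 3, against 5.75, 5.68 and 5.77 in K1_Kan replicates 1, 2 and 3. Replicates of each strain lay close together and the strains did not overlap. The difference was 0.32 (SE 0.07), or 1.25-fold (1.11 to 1.40, limma adjusted p = 0.0073), with 0.34 on slide 1 and 0.31 on slide 2. All 6 values were under the lower quartile of all values. On slide 2 alone, with 2 arrays per strain, the gene did not pass (adjusted p = 0.089).

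ZRT3, which moves stored zinc from the vacuole to the cytosol, did not pass the test. It read 9.64, 9.80 and 9.76 in P3_Kan replicates 1, 2 and 3, against 9.40, 9.76 and 9.70 in K1_Kan replicates 1, 2 and 3. K1_Kan replicate 1 was the lowest array, and the remaining 5 values of both strains were interleaved. The log2 difference was 0.11 (95% interval −0.13 to 0.36, limma adjusted p = 0.43), so the data allow a level between 0.91-fold and 1.28-fold that of the wine strain. Slide 1 gave 0.00 and slide 2 gave 0.17.

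COT1, a vacuolar transporter of cobalt and zinc, had the largest decrease of the 8 genes. It read 9.90, 9.94 and 10.11 in P3_Kan replicates 1, 2 and 3, against 10.70, 10.74 and 10.64 in K1_Kan replicates 1, 2 and 3. All flor arrays were below all wine arrays, with P3_Kan replicate 3 the nearest to them. Means were 9.98 ± 0.11 in P3_Kan and 10.69 ± 0.05 in K1_Kan. The level was 1.64-fold lower in the flor strain (1.43 to 1.87), a log2 difference of −0.71 (SE 0.08, limma adjusted p = 0.00020). The difference was −0.63 on slide 1 and −0.75 on slide 2.

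ZRC1, the main vacuolar zinc importer and a homologue of COT1, had the smallest difference past the threshold. It read 9.78, 9.71 and 9.87 in P3_Kan replicates 1, 2 and 3, against 9.98, 10.01 and 10.13 in K1_Kan replicates 1, 2 and 3. The groups did not overlap, but the highest flor array came close to the lowest wine array. The difference was −0.25 (SE 0.08), or 1.19-fold lower (1.05 to 1.36, limma adjusted p = 0.033), with −0.14 on slide 1 and −0.31 on slide 2. This call was lost with slide as a block (adjusted p = 0.052) and without P3_Kan replicate 2 or K1_Kan replicate 1, 2 or 3 (adjusted p = 0.093, 0.063, 0.075 and 0.14), among other settings.

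ZRG17 encodes a zinc transporter of the endoplasmic reticulum that works as a complex with Msc2. It read 7.51, 7.49 and 7.53 in P3_Kan replicates 1, 2 and 3, against 7.82, 7.94 and 7.86 in K1_Kan replicates 1, 2 and 3. The flor arrays were the tightest set of 3 among the 8 genes, with a range of 0.04, and all lay below the wine arrays. The level was 1.29-fold lower in the flor strain (1.15 to 1.45), a log2 difference of −0.37 (SE 0.07, limma adjusted p = 0.0039). It was −0.41 on slide 1 and −0.35 on slide 2, and on slide 2 alone it did not pass (adjusted p = 0.069).

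The partner gene MSC2 was lower too. It read 7.22, 7.62 and 7.56 in P3_Kan replicates 1, 2 and 3, against 8.13, 8.10 and 8.13 in K1_Kan replicates 1, 2 and 3. The flor arrays were scattered and the wine arrays nearly equal, without overlap. The level was 1.57-fold lower in the flor strain (1.32 to 1.87), a log2 difference of −0.65 (SE 0.11, limma adjusted p = 0.0015). Both genes of this transporter complex were therefore below the wine strain's level, by log2 differences whose intervals overlap in part.

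**Figure D2:**
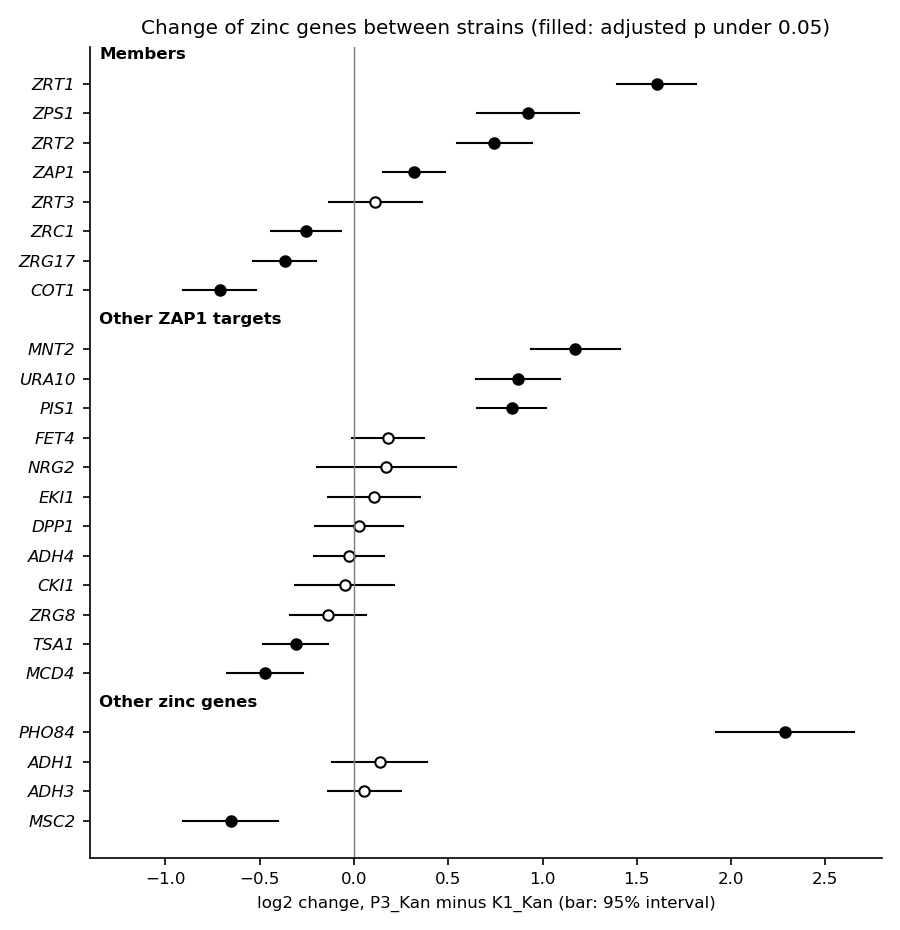
Log2 change, P3_Kan minus K1_Kan, with its 95% interval (horizontal axis) for the 8 zinc homeostasis genes, 12 other targets of Zap1 and 4 other zinc genes; filled points passed limma's adjusted p of 0.05. ZRT1, ZPS1, ZRT2 and ZAP1 lie right of 0, and COT1, ZRG17 and ZRC1 left of it, while 7 of the 12 other targets did not pass.

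The other genes that Zap1 switches on differed in both directions. Of 19 listed targets outside the 8 genes, 12 could be read by name, and 3 of these were higher, 2 lower and 7 did not pass. That share, 41.7%, was near the 44.1% of all features, and the median change was 0.07. Those higher in the flor strain were MNT2, a mannosyltransferase gene (log2 difference 1.17, limma adjusted p = 3.8e-05), URA10, an orotate phosphoribosyltransferase gene (0.87, adjusted p = 0.00015), and PIS1, the phosphatidylinositol synthase gene (0.84, adjusted p = 5.8e-05). The lower ones were MCD4, which acts in the synthesis of membrane anchors of surface proteins (−0.47, adjusted p = 0.0026), and TSA1, a peroxiredoxin gene (−0.31, adjusted p = 0.011), which did not pass on slide 2 alone (adjusted p = 0.13). The 7 that did not pass differed by −0.14 to 0.18. The listed targets not read by name were IZH1, IZH2, IZH4, ICY2, VEL1, RTC4 and YOR387C. The share and median above leave them out, and whether unnamed probes measure them was not examined. URA10 and TSA1 have paralogs that their probes may also detect.

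FET4 encodes a low-affinity iron transporter that also carries zinc. It averaged 7.60 ± 0.09 in P3_Kan and 7.42 ± 0.08 in K1_Kan, without overlap of the strains, and did not pass (log2 difference 0.18, 95% interval of the fold 0.99 to 1.30, limma adjusted p = 0.12). ADH4, an alcohol dehydrogenase gene that zinc shortage induces through Zap1, gave 6.17, 6.14 and 6.25 in P3_Kan replicates 1, 2 and 3, against 6.26, 6.10 and 6.27 in K1_Kan replicates 1, 2 and 3. These values were interleaved, and all lay below the lower quartile (log2 difference −0.02, fold interval towards lower 0.89 to 1.16, adjusted p = 0.83). ADH1 and ADH3, zinc-containing alcohol dehydrogenases whose genes Zap1 represses in zinc-poor cells, did not pass either. ADH1 averaged 15.54 ± 0.10 in P3_Kan and 15.41 ± 0.20 in K1_Kan (0.14, limma adjusted p = 0.36), near the top of the scale. Without single arrays this difference ran from 0.06 (without K1_Kan replicate 1) to 0.25 (without K1_Kan replicate 3) and did not pass. ADH3 averaged 13.56 ± 0.13 in P3_Kan and 13.50 ± 0.03 in K1_Kan (0.06, limma adjusted p = 0.64). ADH1 shares much of its sequence with ADH2, so its probe may not separate them.

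PHO84, the high-affinity phosphate transporter, which can also carry zinc, stood well above the wine strain. It read 8.64, 9.08 and 8.42 in P3_Kan replicates 1, 2 and 3, against 6.41, 6.28 and 6.59 in K1_Kan replicates 1, 2 and 3. The strains did not overlap. The level was 4.88-fold higher in the flor strain (3.79 to 6.27, log2 difference 2.29, limma adjusted p = 8.3e-06).

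Along chromosome VII of the R64 reference order, the nearest named and measured genes beside ZRT1 were mixed. ADH4 lies next to it on one side with MNT2 beyond, and FZF1, a regulator of sulfite export, on the other with HXK2, the main hexokinase gene, beyond. ADH4 and FZF1 did not pass (log2 differences −0.02 and −0.01, limma adjusted p = 0.83 and 0.97), whereas MNT2 and HXK2 were higher in the flor strain (1.17 and 1.77, adjusted p = 3.8e-05 and 2.0e-06). ADH4 and FZF1 were also dim, which limits what their values can show. Strain means were 6.19 (P3_Kan) and 6.21 (K1_Kan) for ADH4 and 6.82 in each strain for FZF1, below the lower quartile of 7.11. The 95% intervals of the log2 difference were −0.21 to 0.16 for ADH4 and 1.39 to 1.81 for ZRT1. Over the 7 called members, 14 of 28 such neighbours passed, 6 higher and 8 lower, a share near the 47.1% of all named genes.

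The named genes most like ZRT1 over the 6 arrays, by root mean square distance of log2 values centred per gene, were PFK27 (0.05), FLO5 (0.07), FLO1 (0.09) and MIG1 (0.10). PFK27 makes a regulator of glycolysis, MIG1 a glucose repressor, and FLO1 and FLO5 are flocculins of similar sequence whose probes may not separate them. Those most like COT1 were SRB2 (0.04), NUP49 (0.05), CYC8 (0.05) and ALF1 (0.05), which encode a Mediator subunit, a nuclear pore protein, a corepressor and a tubulin-folding factor. With 6 arrays in 2 strains, such likeness mostly restates an equal difference between strains.

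**Figure D3:**
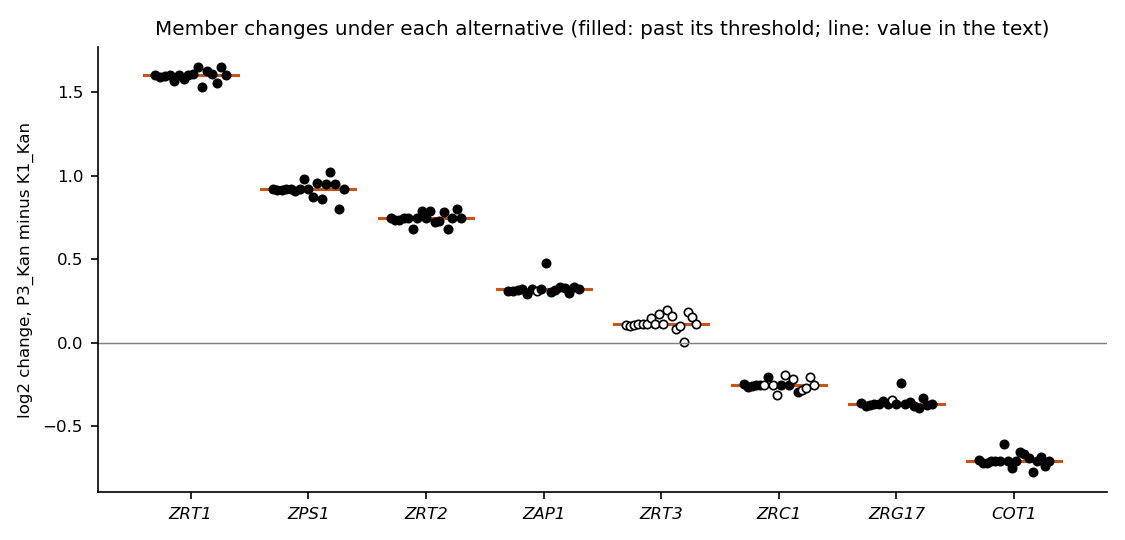
Log2 change, P3_Kan minus K1_Kan (vertical axis), of each of the 8 genes under every alternative treatment of the values (points; filled where the alternative's threshold was passed), with the value given in the text as an orange line. No gene crosses 0, and open points occur for ZRT3, ZRC1, ZAP1 and ZRG17.

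The log2 difference of ZRT1 ranged from 1.53 to 1.65, ZPS1 from 0.80 to 1.02, ZRT2 from 0.68 to 0.80 and COT1 from −0.78 to −0.61 over the alternatives that kept them, and these 4 passed in each. ZAP1 ranged from 0.29 to 0.47, ZRG17 from −0.39 to −0.24 and ZRC1 from −0.31 to −0.19, and their calls depended on the setting as given above. ZRT3 ranged from 0.0014, without K1_Kan replicate 1, to 0.20, with a trend by coding length removed, and passed in none of these settings. Neighbours in the order such as ZPS1 and ZRT2, with 95% intervals of 0.65 to 1.20 and 0.55 to 0.94, were not tested against each other.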

How the data were processed

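The authors deposited 1 log2 intensity per probe and array for 6227 probes on 6 one-colour (Cy3) arrays, per the labels' protocols. The log2 scale was read from the values (5.29 to 15.88), and the near-equal quartiles show that arrays had been normalized to each other. R 2.14.2 and limma are listed in the submitters' processing notes. How background was corrected, arrays were normalized and probes were filtered is not given in the sources used here. Neither detection calls nor strain sequences were used, so a probe's fit to each strain was not examined. Normalization makes each difference relative to all other genes.

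Probes were named through the platform annotation (4061 with 1 symbol, 0 with several, 2166 unnamed), with 125 symbols updated through the R64 gene table. Of these symbols 4053 matched R64, and 8 were kept as annotated. The gene with 2 probes was averaged. Strain means were fitted with limma 3.58.1 (lmFit, eBayes, two-sided) in R 4.3.3, P3_Kan minus K1_Kan, over 6226 features. Precision is limited by 3 arrays per strain. The fit was checked on simulated data. Their noise was independent between arrays, so effects shared by arrays of a slide were not part of that check.

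The members and lists were chosen with earlier results of these data known. By the naming rule, all members, list genes that passed, ADH4, MSC2, FET4, ADH1, ADH3, neighbours, and the 4 genes most like ZRT1 and COT1 are named. Listed Zap1 targets that could not be read are also named. For neighbours of members other than ZRT1, counts alone are given. No probe or gene sequence was used.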

Additional observations from a re-analysis of the deposited data

How the results depend on the processing

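Over 18 alternatives the 8 genes gave 137 values, of which 0 changed sign and 11 lost a call. ZRC1 lost its call in 9 of 18: besides those named above, with an intensity trend and robust eBayes (adjusted p = 0.061), on slide 2 alone (0.11), after removal of a coding-length trend (0.072, chosen after seeing the data) and at a threshold of 0.01. Removal of the dimmest 50% of features left 1543 calls over all features, 2 of 3 remaining members and 0 of 2 other zinc genes, because dim genes were no longer tested (PHO84, MSC2 and 5 members among them). Slide 2 alone, with fewer arrays, gave 1424 calls and 4 members, and a threshold of 0.01 gave 1761 calls. Without single arrays, 2040 to 3279 features, 6 to 7 members, 5 of the other Zap1 targets and 2 other zinc genes passed. Centring on the median gave 1241 higher and 1515 lower calls. Array weights, whose estimate stopped before converging, gave 3770 calls over all features, against 2746 in the main fit. They turned ADH4 to 0.013 and gave ADH3 a call (0.16, adjusted p = 0.043), while slide 2 alone turned ADH3 to −0.0043. Values near 0 also turned without single arrays: ADH3 ranged from −0.011 to 0.116, ADH4 from −0.079 to 0.0058 and FZF1 from −0.068 to 0.086. TSA1 did not pass on slide 2 alone (adjusted p = 0.13) or at 0.01, and FET4 passed once the length trend was removed (0.28, adjusted p = 0.015). Whether equal replicate numbers pair arrays across the strains is not stated, and correlations of deviations from the strain means cannot decide it. These were 0.37, 0.23 and 0.05 for numbers 1, 2 and 3. P3_Kan replicate 1 correlated best with K1_Kan replicate 1, which was on the same slide. P3_Kan replicate 2 correlated best with K1_Kan replicate 2, which was on the other slide. P3_Kan replicate 3 correlated best with K1_Kan replicate 2 (0.19), which was on the same slide. With the replicate number as a block, 2973 features and 7 members passed. Low signal limits what ZAP1, ADH4, FZF1 and the wine strain's ZRT1 values can show.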
